A study of Mus musculus with 28 samples.

Results

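The genes described are Trp53, which encodes the p53 protein, and 8 genes that p53 activates after DNA damage: Mdm2, Ccng1, Trp53inp1, Zmat3, Phlda3, Sesn1, Sesn2 and Tnfrsf10b. They were chosen by symbol and leave out the p53 targets of the Cdkn and Bcl2 families. All 9 were among the 24421 symbols of the count table, and all 9 were among the 14371 genes that passed the filter on low counts. Messenger RNA had been sequenced in mouse thymocytes of 3 genotypes, each sorted as DN2/3 and DN4, which are earlier and later stages without surface CD4 or CD8. Wild type was C57BL/6, with 4 libraries a stage. Lmo2tg carried a transgene for Lmo2, an adaptor protein and T-cell leukemia oncogene, with 5 libraries a stage. The genotype Lmo2tg; Ldb1-KO, written Ldb1-KO below, carried the same transgene and a deletion of floxed Ldb1, the gene of an Lmo2 partner, also with 5 libraries a stage by the sample labels, where the series' design text gives 4. All Ldb1-KO animals therefore also had the transgene, and no group had the Ldb1 deletion alone. The labels name the source as CD4 T cells, while the titles name DN subsets, and the titles were followed here. The protocol lists Lck-Cre, Rag1-Cre and IL-7Ra-Cre mice without saying which served in a given sample. The labels give neither the promoter of the Lmo2 transgene nor the age of the mice.

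The p53 protein is a transcription factor that is held at a low level by Mdm2, the ubiquitin ligase that marks it for degradation. Damage to DNA stabilizes p53 largely without a change in its own mRNA, and its targets then bring about cell cycle arrest, repair, metabolic restraint or death. In double-negative thymocytes the pathway bears on the rearrangement of T-cell receptor genes, which breaks DNA, and its loss is a known route to thymic lymphoma in mice. Because p53 acts through protein stability, mRNA levels of Trp53 and of its targets need not move together.

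The labels held at the level of the 2 manipulated genes. Lmo2 ranged from 0 to 0.41 CPM (counts per M counts) over the wild-type libraries and from 25.3 to 68.9 CPM over the transgenic ones. Ldb1 ranged from 247 to 550 CPM in wild type and Lmo2tg and from 6.11 to 120 CPM in Ldb1-KO, lowered but not at 0. The residual Ldb1 level differed by stage, from 57.1 to 120 CPM in Ldb1-KO DN2/3 and from 6.11 to 54.7 CPM in Ldb1-KO DN4. Library totals ran from 28.1 to 106.93 M counts. The summed CPM of 11 early thymocyte markers, such as Cd3e, Bcl11b and Ptcra, ran from 7060 to 11000. That of 7 double-positive thymocyte markers, Cd4 and Cd8a among them, ran from 341 to 699 in wild type and reached 3150 in Lmo2tg DN4 and 2850 in Ldb1-KO DN4. Some markers of other blood cells were at 0: Pax5 of B cells and S100a8 and S100a9 of myeloid cells had no count in wild type, and Hbb-bs and Hba-a2 of erythroid cells were listed at 0 in every group. Other markers of these lists were detected, with sums in wild type DN2/3 of 70.4 to 81.3 CPM for 10 B cell, 25.8 to 31.8 CPM for 12 myeloid and 211 to 341 CPM for 10 erythroid markers, the last reaching 630 CPM in Lmo2tg DN2/3. Wild-type library names follow another pattern than transgenic ones, so a difference between those library series and one between wild type and transgenic mice cannot be told apart. The labels do not say that replicates were separate mice, and p-values then measure only the spread between these libraries. In sorted bulk samples, fewer cells of a type and less RNA per cell cannot be told apart.

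Promoter sequences are shown because p53 acts on its targets through a known DNA element, a pair of decamers. RefSeq windows of 300 bases (250 before to 50 after a start, GRCm38.p6) were found for 6 of the 9 genes, all but Trp53inp1, Zmat3 and Tnfrsf10b. Each was searched for the p53 consensus, read as 2 adjoining decamers without a spacer and with the core C and G of each decamer required, which covers both strands since the element reads the same on each. In capitals is the 20-base stretch with the fewest mismatches, 5′ to 3′ on the gene's own strand, with up to 30 bases on either side. The first 3 are the matches with 3 mismatches or fewer, the fourth is that of Phlda3, and the last is Cdkn1a, given for comparison.
Ccng1, chr11:40755432-40755511, strand -: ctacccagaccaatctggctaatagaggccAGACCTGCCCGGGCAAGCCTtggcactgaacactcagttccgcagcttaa
Sesn1, chr10:41887236-41887315, strand +: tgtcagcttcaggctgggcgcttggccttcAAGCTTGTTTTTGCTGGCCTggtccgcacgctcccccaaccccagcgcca
Trp53, chr11:69580254-69580333, strand +: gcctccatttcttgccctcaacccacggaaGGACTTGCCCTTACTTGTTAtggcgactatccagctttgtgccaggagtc
Phlda3, chr1:135766012-135766084, strand +: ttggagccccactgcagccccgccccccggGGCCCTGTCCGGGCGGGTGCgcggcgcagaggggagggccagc
Cdkn1a, chr17:29090898-29090977, strand +: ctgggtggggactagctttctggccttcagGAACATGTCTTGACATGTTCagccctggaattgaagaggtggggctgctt

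The Ccng1 stretch, 195 to 176 bases before the start, differed from the consensus at 1 position. So did that of Cdkn1a, 51 to 32 bases before the first of its 2 starts. The window of the other Cdkn1a start had 7 mismatches at best. Of all 32851 windows, 0.067% held a stretch with 1 mismatch or fewer. Sesn1, at the second of its 2 starts, and Trp53 each had 3 mismatches, a level that 1.38% of all windows reached. Phlda3 had 5 mismatches at best, and Mdm2 and Sesn2 had 9. The median was 7 over the windows that held any stretch with the required core C and G. These matches are letters in a window and not measured binding. Sequence outside the windows, such as introns further from a start, was not searched, so elements there would be missed.

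The 9 genes spanned a wide range of levels. Per length (RPKM, with the summed exon length of each gene), Trp53 was the highest in wild type DN2/3 at 75.4 ± 9.45 (SD, n = 4). Trp53inp1 followed at 33.7, then Ccng1 at 20.5, Mdm2 at 18.8 and Sesn1 at 17.0 RPKM. Phlda3 at 3.95, Sesn2 at 1.88, Tnfrsf10b at 0.809 and Zmat3 at 0.527 RPKM were far lower. In Lmo2tg DN4 the order at the top was different, with Trp53inp1 at 97.0 RPKM and Trp53 at 60.4 RPKM. Across the 6 groups the mean log2 CPM of Tnfrsf10b spanned 2.53, that of Phlda3 2.09, that of Trp53inp1 2.02 and that of Zmat3 1.85. Ccng1 spanned 1.21 and Sesn2 0.84. Trp53 itself spanned 0.57, Sesn1 0.47 and Mdm2 0.35, the narrowest. When the 6 groups were put in order of mean for each gene, every pair of neighbours in the order overlapped in single-library values.

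**Figure D1:**
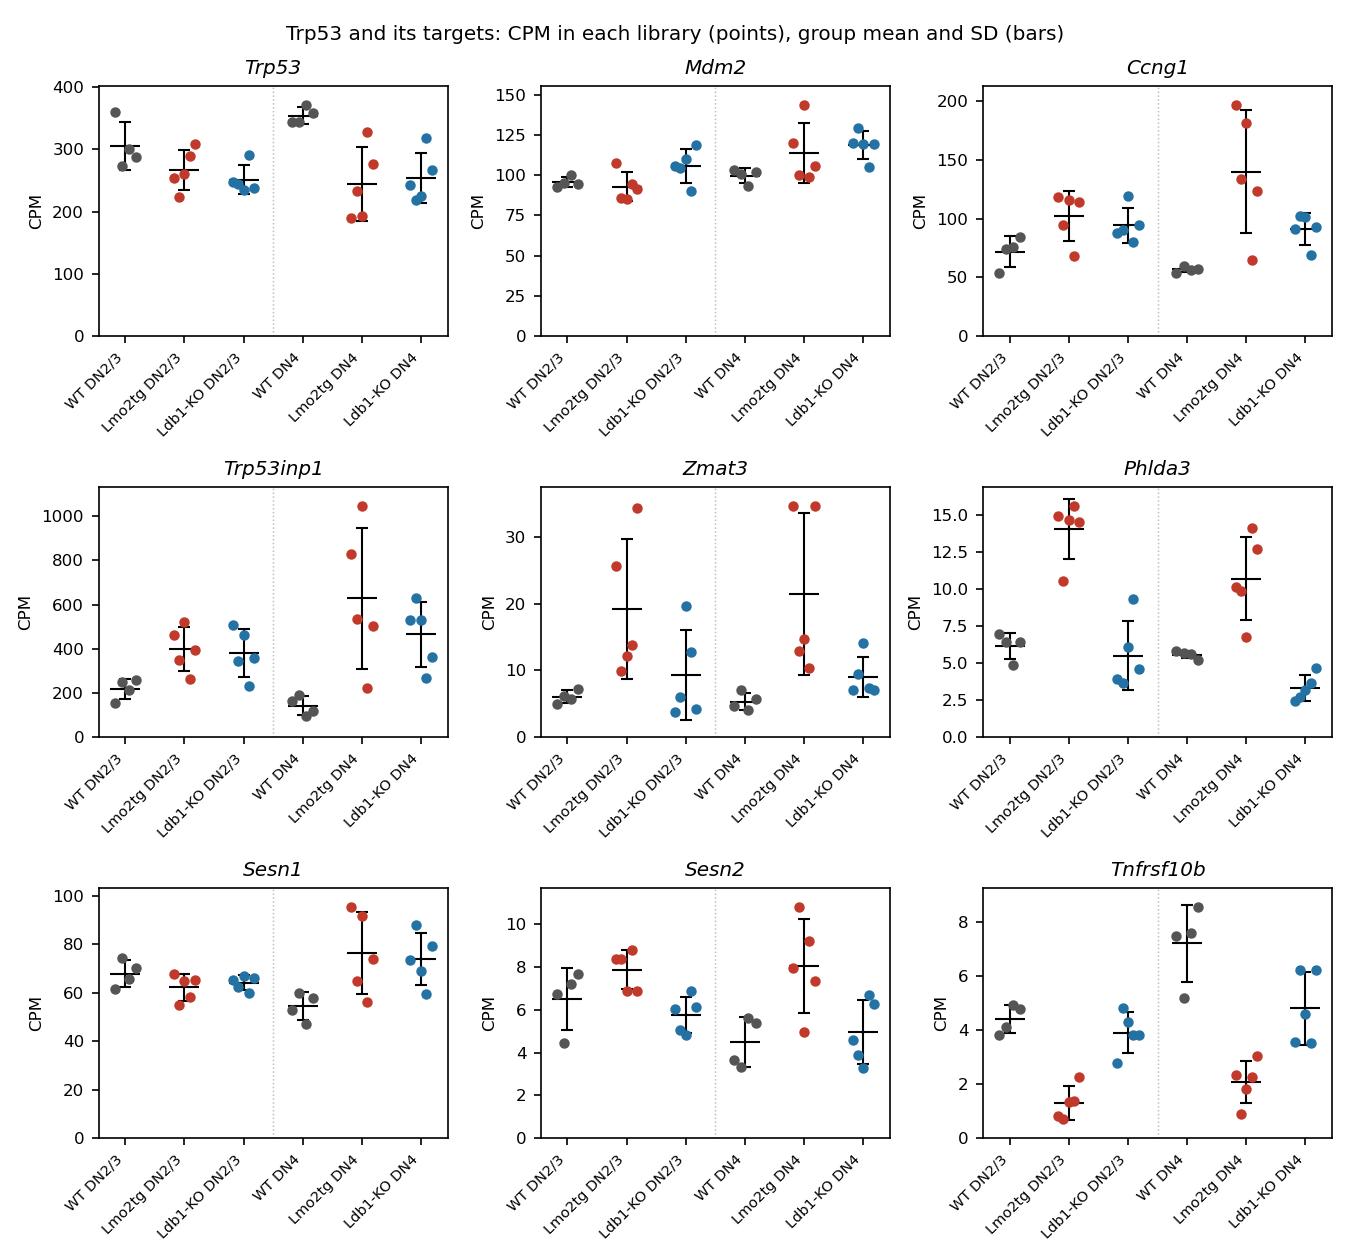
CPM of the 9 genes (y axes, linear from 0) in each of 28 libraries (points) by genotype and stage (x axes, WT is wild type), with the group mean and SD as bars. The Lmo2tg points of Phlda3 lie above the wild-type points and those of Tnfrsf10b below them at both stages, while Mdm2 stays between 85.0 and 144 CPM.

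Lmo2tg against wild type asks what the transgene changes at each stage. At DN2/3, 3 of the 9 genes rose and 1 fell (adjusted p below 0.05 in edgeR's quasi-likelihood test), where 29.5% of all genes tested changed, 15.1% higher and 14.4% lower. Phlda3, Zmat3 and Trp53inp1 rose, and Tnfrsf10b fell. At DN4, 6 rose and 2 fell, where 52.4% of all genes changed, 28.9% higher and 23.5% lower. Phlda3, Zmat3, Trp53inp1, Ccng1, Sesn1 and Sesn2 rose, Tnfrsf10b and Trp53 fell, and Mdm2 did not pass the test. The median log2 fold of the 9 was 0.27 at DN2/3 and 0.84 at DN4, against 0.01 and 0.07 over all genes.

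Ldb1-KO against Lmo2tg asks what changes when Ldb1 is lowered in the presence of the transgene. At DN2/3, Tnfrsf10b rose and Phlda3 fell, 1 gene in each direction, where 16.1% of all genes changed, 8.87% higher and 7.22% lower. At DN4, Tnfrsf10b rose and Phlda3, Ccng1, Zmat3 and Sesn2 fell, 1 and 4 of the 9 genes, where 14.6% of all genes changed, 5.85% higher and 8.71% lower. In a model of these 2 groups only, 1 of the 9 genes, Phlda3, changed at DN4, where 681 of all genes did (2092 in the model of all groups). Without the filter on low counts 3 of the 9 did. The number was 3 without Lmo2tg DN4 replicate 1 or Ldb1-KO DN4 replicate 4 or 5, and 2 without Ldb1-KO DN4 replicate 1 or 2. Sesn2 was also lost without Lmo2tg DN4 replicate 2 or Ldb1-KO DN4 replicate 3. Ccng1 was lost without Lmo2tg DN4 replicate 3, and Zmat3 without Lmo2tg DN4 replicate 5. Over all genes, the 10 fits that leave out 1 library gave 1476 to 2866. The median log2 fold of the 9 was -0.09 at DN2/3 and -0.43 at DN4, against -0.01 and -0.02 over all genes. These comparisons share the Lmo2tg libraries with those against wild type, so their values are not independent of each other.

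Ldb1-KO against wild type compares transgenic cells with lowered Ldb1 with cells that have neither change. At DN2/3 none of the 9 genes passed the edgeR test, 0 higher and 0 lower, where 9.56% of all genes changed, 6.98% higher and 2.58% lower. At an unadjusted p below 0.05 there was 1, Trp53inp1, and DESeq2 called 0. Trp53inp1 also passed in a model of these 2 groups only (log2 fold 0.82, adjusted p = 0.0187). At DN4, 3 rose (Trp53inp1, Ccng1 and Sesn1) and 2 fell (Phlda3 and Trp53), where 32.6% of all genes changed, 18.2% higher and 14.4% lower. In a model of these 2 groups only, 8 of the 9 genes were called at DN4. Mdm2 and Zmat3 were added as higher (adjusted p = 0.018 and 0.0225) and Tnfrsf10b as lower (adjusted p = 0.048). Without wild type DN4 replicate 3 the number was 3, with Ccng1 and Sesn1 lost. Over all genes that fit gave 2855, against 4680 with all libraries.

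**Figure D2:**
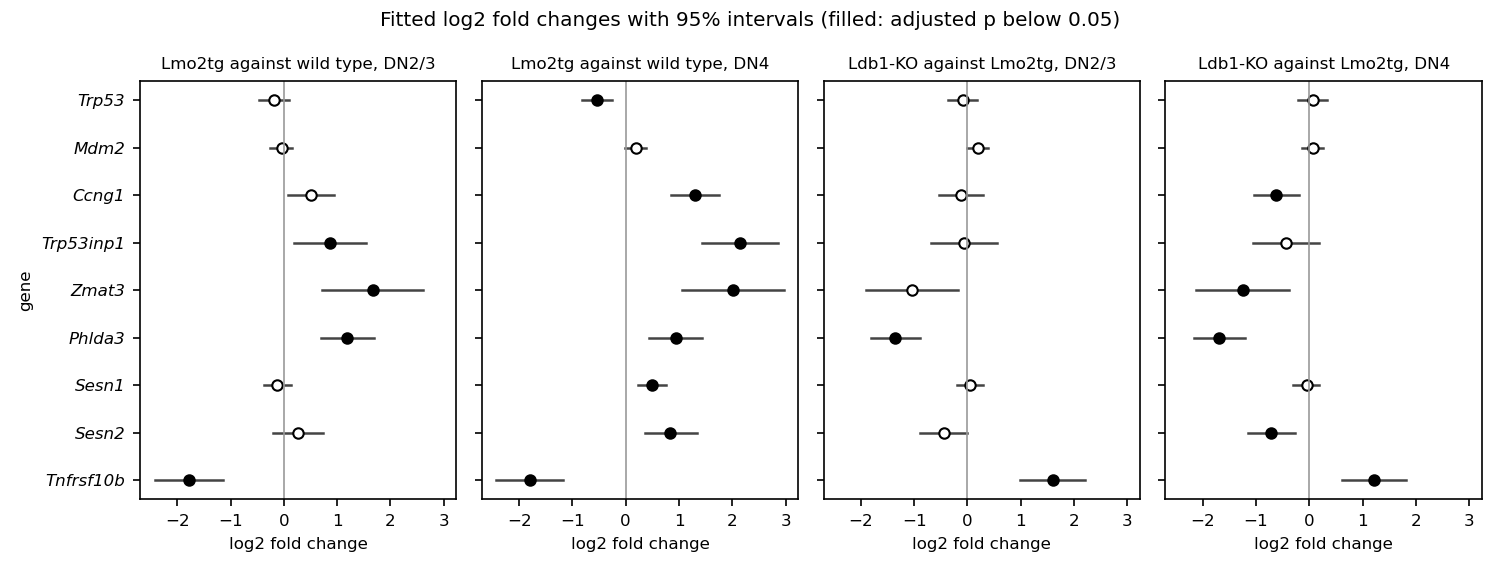
Log2 fold changes of the 9 genes (y axis) from the edgeR model in 4 comparisons (panels), with 95% intervals as lines and filled points at an adjusted p below 0.05. Tnfrsf10b lies at -1.78 and -1.80 in Lmo2tg against wild type and at 1.60 and 1.22 in Ldb1-KO against Lmo2tg, and Trp53 and Mdm2 lie near 0 in both comparisons of Ldb1-KO.

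Trp53 (ENSMUSG00000059552, mm10 chromosome 11, 69580359 to 69591873, plus strand) encodes the transcription factor itself. Listed by replicate number, here as below, Trp53 at DN2/3 stood at 359.9, 273, 300.5 and 287 CPM for wild type, 254, 224, 260.3, 289 and 308 for Lmo2tg, and 247, 245, 234, 292 and 239 for Ldb1-KO. The 3 genotypes overlapped at this stage. Trp53 at DN4 stood at 344, 344, 372 and 358 CPM for wild type, 190.3, 233, 192, 329 and 277 for Lmo2tg, and 243, 219, 226, 318 and 267 for Ldb1-KO. All wild-type DN4 libraries stood above all DN4 libraries of both transgenic groups, in which replicate 4 was the highest. Trp53 fell in Lmo2tg DN4 (log2 fold -0.54, SE 0.14, adjusted p = 0.00225) and was lower in Ldb1-KO DN4 than in wild type (log2 fold -0.48, SE 0.14, adjusted p = 0.0112). Between Ldb1-KO and Lmo2tg the log2 difference was -0.09 at DN2/3 (95% interval -0.36 to 0.18) and 0.06 at DN4 (-0.21 to 0.33).

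Mdm2 (ENSMUSG00000020184, chromosome 10, 117688875 to 117710758, minus strand) encodes the ligase that removes p53 and is itself a p53 target. Mdm2 at DN2/3 stood at 92.4, 95.2, 100 and 94.7 CPM for wild type, 108, 85.8, 85.03, 94.1 and 91.3 for Lmo2tg, and 106, 104, 109.7, 89.9 and 119 for Ldb1-KO. Mdm2 at DN4 stood at 103, 100.4, 93.03 and 102 CPM for wild type, 119.8, 100.3, 144, 98.5 and 106 for Lmo2tg, and 119.6, 129, 119.5, 105 and 119 for Ldb1-KO. Lmo2tg DN4 replicate 3 was the highest of all libraries, and Lmo2tg overlapped wild type at both stages. Lmo2tg and wild type differed by -0.04 at DN2/3 (95% interval -0.25 to 0.16, adjusted p = 0.792) and by 0.19 at DN4 (-0.01 to 0.39, adjusted p = 0.111) on the log2 scale. Without Lmo2tg DN4 replicate 4 the DN4 difference was 0.24 and passed (adjusted p = 0.0462). Each Ldb1-KO DN4 library was above each wild-type DN4 library, yet the difference did not pass (log2 fold 0.25, SE 0.10, adjusted p = 0.0555). It passed without Ldb1-KO DN4 replicate 4 (0.29, adjusted p = 0.0316).

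Ccng1 (ENSMUSG00000020326, chromosome 11, 40748552 to 40755311, minus strand) encodes cyclin G1, which recruits a phosphatase to Mdm2. Ccng1 at DN2/3 stood at 53.6, 73.8, 75.9 and 84.4 CPM for wild type, 119, 94.8, 116, 68.1 and 114 for Lmo2tg, and 87.7, 89.9, 119, 80.5 and 94.6 for Ldb1-KO. All Lmo2tg DN2/3 libraries but replicate 4 were above the wild-type ones. The difference did not pass the test (log2 fold 0.51, SE 0.22, adjusted p = 0.0771), and it did without that replicate (0.63, adjusted p = 0.0306). Ccng1 at DN4 stood at 53.9, 59.6, 56.4 and 56.8 CPM for wild type, 197, 134, 181, 64.7 and 123 for Lmo2tg, and 91.3, 102, 102, 68.9 and 92.9 for Ldb1-KO. Every Lmo2tg and every Ldb1-KO DN4 library exceeded the wild-type ones. Ccng1 rose 2.47-fold in Lmo2tg DN4 (log2 fold 1.31, SE 0.22, adjusted p = 3.96e-05). It was lower in Ldb1-KO DN4 than in Lmo2tg DN4 (log2 fold -0.62, SE 0.20, adjusted p = 0.0401), although the libraries overlapped. That call was lost without Lmo2tg DN4 replicate 1 or 3 or without Ldb1-KO DN4 replicate 1, 2, 4 or 5, with log2 folds of -0.66 to -0.46. Against wild type, Ccng1 in Ldb1-KO DN4 was 1.61-fold higher (adjusted p = 0.0187), which did not hold without wild type DN4 replicate 1 or 3 (adjusted p = 0.0541 and 0.0539).

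Trp53inp1 (ENSMUSG00000028211, chromosome 4, 11156431 to 11174379, plus strand) encodes a nuclear protein that promotes p53-driven death and autophagy. Trp53inp1 at DN2/3 stood at 154, 249.5, 212 and 256 CPM for wild type, 461, 351, 522, 262 and 393 for Lmo2tg, and 509.9, 346, 461, 231 and 359 for Ldb1-KO. All Lmo2tg DN2/3 libraries lay above the wild-type ones, the lowest by a small margin. Trp53inp1 rose 1.82-fold at DN2/3 (log2 fold 0.87, SE 0.33, adjusted p = 0.0464). This call stands close to the threshold: it was lost in 8 of the 9 fits that leave out 1 library, all but the one without Lmo2tg DN2/3 replicate 4, with adjusted p-values up to 0.143. Trp53inp1 at DN4 stood at 165, 190.3, 94.2 and 119 CPM for wild type, 829.7, 535, 1049, 224 and 502 for Lmo2tg, and 532, 629.9, 532, 268 and 364 for Ldb1-KO. The lowest transgenic DN4 library, Lmo2tg replicate 4, was still above all wild-type DN4 libraries, and the highest was Lmo2tg replicate 3. Trp53inp1 rose 4.42-fold in Lmo2tg DN4 (log2 fold 2.15, SE 0.34, adjusted p = 2.08e-05). It was 3.28-fold higher in Ldb1-KO DN4 than in wild type (log2 fold 1.71, SE 0.34, adjusted p = 0.000829). Ldb1-KO and Lmo2tg did not differ by the test, with log2 folds of -0.06 at DN2/3 (95% interval -0.68 to 0.56) and -0.43 at DN4 (-1.06 to 0.19).

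Phlda3 (ENSMUSG00000041801, chromosome 1, 135766119 to 135769136, plus strand) encodes a pleckstrin-homology protein that keeps Akt from the membrane. Phlda3 at DN2/3 stood at 6.94, 6.402, 4.87 and 6.41 CPM for wild type, 14.9, 10.5, 14.7, 15.6 and 14.5 for Lmo2tg, and 3.91, 3.64, 6.04, 9.302 and 4.596 for Ldb1-KO. Every Lmo2tg library was above every library of the other 2 genotypes. Phlda3 at DN4 stood at 5.83, 5.66, 5.58 and 5.198 CPM for wild type, 10.1, 9.85, 6.77, 14.1 and 12.7 for Lmo2tg, and 2.43, 2.69, 3.21, 3.64 and 4.67 for Ldb1-KO. Lmo2tg stood above both again, and all Ldb1-KO DN4 libraries lay below the wild-type ones. Phlda3 rose 2.28-fold in Lmo2tg DN2/3 (log2 fold 1.19, SE 0.24, adjusted p = 0.000488) and 1.92-fold in Lmo2tg DN4 (0.94, SE 0.24, adjusted p = 0.0024). In Ldb1-KO it fell from the Lmo2tg level by 1.36 at DN2/3 (SE 0.23, adjusted p = 0.000106) and by 1.69 at DN4 (SE 0.23, adjusted p = 1.51e-05) on the log2 scale. These 4 calls held in each fit that left out 1 library. Against wild type the log2 fold in Ldb1-KO was -0.16 at DN2/3 (95% interval -0.65 to 0.32) and -0.75 at DN4 (adjusted p = 0.0201). The latter call was lost without Ldb1-KO DN4 replicate 1 or 2 (adjusted p = 0.0563 and 0.0532).

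Tnfrsf10b (ENSMUSG00000022074, chromosome 14, 69767472 to 69784411, plus strand) encodes the mouse death receptor for the ligand TRAIL. Tnfrsf10b at DN2/3 stood at 3.82, 4.12, 4.93 and 4.76 CPM for wild type, 0.803, 0.721, 1.33, 1.38 and 2.26 for Lmo2tg, and 2.78, 4.81, 4.297, 3.8 and 3.81 for Ldb1-KO. Every Lmo2tg DN2/3 library was below every library of the other 2 genotypes, which overlapped each other. Tnfrsf10b at DN4 stood at 7.47, 5.18, 7.58 and 8.56 CPM for wild type, 2.35, 0.888, 1.83, 2.25 and 3.04 for Lmo2tg, and 3.53, 6.21, 4.57, 3.51 and 6.198 for Ldb1-KO. Lmo2tg was again below both without overlap. Tnfrsf10b fell in Lmo2tg DN2/3 to 0.291 of its wild-type level (adjusted p = 7.41e-05), a log2 fold of -1.78 with an SE of 0.31. The DN4 level was 0.287 of wild type (adjusted p = 4.05e-05), a log2 fold of -1.80 with an SE of 0.30. In Ldb1-KO it was 3.04-fold higher than in Lmo2tg at DN2/3 (log2 fold 1.60, SE 0.30, adjusted p = 0.000308) and 2.33-fold higher at DN4 (1.22, SE 0.29, adjusted p = 0.00514). The DN4 call was not reached in a model of the 2 groups only (adjusted p = 0.0613). Ldb1-KO and wild type differed by -0.18 at DN2/3 (95% interval -0.79 to 0.44) and by -0.58 at DN4 (-1.20 to 0.03) on the log2 scale.

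Zmat3 (ENSMUSG00000027663, chromosome 3, 32334792 to 32366014, minus strand) encodes an RNA-binding zinc finger protein that regulates splicing and mRNA stability. Zmat3 at DN2/3 stood at 4.902, 6.199, 5.72 and 7.28 CPM for wild type, 25.7, 9.93, 12.2, 13.8 and 34.4 for Lmo2tg, and 3.78, 6.08, 19.7, 12.7 and 4.25 for Ldb1-KO. Zmat3 at DN4 stood at 4.66, 7.01, 3.995 and 5.66 CPM for wild type, 34.7, 12.9, 14.7, 10.4 and 34.7 for Lmo2tg, and 7.05, 9.51, 14.04, 7.31 and 7.01 for Ldb1-KO. All Lmo2tg libraries exceeded the wild-type ones, and replicates 1 and 5 stood well above the other Lmo2tg replicates at both stages. Zmat3 rose 3.18-fold in Lmo2tg DN2/3 (log2 fold 1.67, SE 0.46, adjusted p = 0.00689) and 4.03-fold in Lmo2tg DN4 (2.01, SE 0.47, adjusted p = 0.00101). Both calls held in each fit that left out 1 library, with log2 folds of 1.35 to 1.83 and of 1.77 to 2.18. In Ldb1-KO it was lower than in Lmo2tg at DN4 (log2 fold -1.25, SE 0.42, adjusted p = 0.0452). That call was lost without Lmo2tg DN4 replicate 1 or 5 (adjusted p = 0.13 and 0.135), without Ldb1-KO DN4 replicate 1, 2, 4 or 5, and in a model of the 2 groups only (0.0811). At DN2/3 the log2 fold was -1.04 (adjusted p = 0.095), and without Ldb1-KO DN2/3 replicate 3, the highest of its group, it was -1.52 (adjusted p = 0.0131). Ldb1-KO and wild type differed by 0.63 at DN2/3 (95% interval -0.29 to 1.54) and by 0.75 at DN4 (-0.17 to 1.68) on the log2 scale. Neither passed, but the DN4 difference did in a model of the 2 groups only (adjusted p = 0.0225).

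Sesn1 (ENSMUSG00000038332, chromosome 10, 41809935 to 41908424, plus strand) and Sesn2 (ENSMUSG00000028893, chromosome 4, 132492032 to 132510501, minus strand) encode sestrins, stress proteins that restrain the growth kinase mTORC1. Sesn1 at DN2/3 stood at 61.6, 74.2, 65.4 and 70.1 CPM for wild type, 67.6, 54.7, 64.9, 58.3 and 65.4 for Lmo2tg, and 65.4, 62.3, 66.9, 59.7 and 66.2 for Ldb1-KO. Sesn1 at DN4 stood at 53.02, 59.9, 47.04 and 57.98 CPM for wild type, 95.5, 64.9, 91.5, 56.3 and 73.9 for Lmo2tg, and 73.7, 87.9, 68.8, 59.5 and 79.1 for Ldb1-KO. The genotypes overlapped at DN2/3, and at DN4 the Lmo2tg and Ldb1-KO libraries overlapped wild type only through their lowest values. Sesn1 rose in Lmo2tg DN4 (log2 fold 0.49, SE 0.13, adjusted p = 0.00268) and was 1.35-fold higher in Ldb1-KO DN4 than in wild type (0.44, SE 0.13, adjusted p = 0.0121). The second call was lost without wild type DN4 replicate 3 (0.36, adjusted p = 0.0671). Sesn2 at DN2/3 stood at 6.76, 4.42, 7.21 and 7.69 CPM for wild type, 8.39, 8.39, 6.896, 8.796 and 6.86 for Lmo2tg, and 6.02, 5.07, 4.8, 6.86 and 6.14 for Ldb1-KO. Sesn2 at DN4 stood at 3.65, 3.303, 5.61 and 5.39 CPM for wild type, 7.95, 10.8, 4.94, 9.21 and 7.35 for Lmo2tg, and 4.58, 3.86, 3.27, 6.69 and 6.29 for Ldb1-KO. Wild type and Lmo2tg overlapped at both stages for Sesn2. Sesn2 rose 1.80-fold in Lmo2tg DN4 (log2 fold 0.84, SE 0.23, adjusted p = 0.00416) and was lower in Ldb1-KO DN4 than in Lmo2tg (log2 fold -0.71, SE 0.22, adjusted p = 0.0288). The latter was lost without Lmo2tg DN4 replicate 2 or Ldb1-KO DN4 replicate 1, 2 or 3, with log2 folds of -0.69 to -0.58, and in a model of the 2 groups only (adjusted p = 0.169).

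DN4 against DN2/3 within a genotype asks how the genes move as thymocytes pass the stage at which the pre-T-cell receptor is tested. Libraries with the same number in a genotype deviated together, so both the fit without and that with the replicate number as a block are given. In wild type none of the 9 genes passed without the block, 0 higher and 0 lower, where 46% of all genes changed, 21.1% higher and 24.8% lower. The unadjusted p was below 0.05 for 3, and DESeq2 called 1, Tnfrsf10b. Without 1 library, edgeR called 1 in 3 of 8 fits: Sesn1 without wild type DN2/3 replicate 1, Sesn2 without wild type DN2/3 replicate 2 and Tnfrsf10b without wild type DN4 replicate 2. With the block, where 62.1% of all genes changed (28.6% higher and 33.5% lower), 1 rose, Tnfrsf10b (log2 fold 0.69, adjusted p = 0.00382), and 4 fell. These were Ccng1 (-0.33, adjusted p = 0.028), Trp53inp1 (-0.65, 0.0141), Sesn1 (-0.32, 0.0068) and Sesn2 (-0.55, 0.00367). Sesn1 and Sesn2 were lower in DN4 in all 4 wild-type pairs, and Tnfrsf10b was higher in all 4.

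In Lmo2tg, Mdm2 rose from DN2/3 to DN4 (log2 fold 0.29, SE 0.09, adjusted p = 0.0335), 1 of the 9 genes higher and 0 lower, where 15.4% of all genes changed, 8.32% higher and 7.04% lower. With the block 5 rose and 0 fell, where 38.8% of all genes changed, 18.6% higher and 20.1% lower. Beside Mdm2 these were Ccng1 (log2 fold 0.38, adjusted p = 0.0113), Trp53inp1 (0.52, 0.0369), Sesn1 (0.28, 0.0158) and Tnfrsf10b (0.69, 0.00739). Mdm2 and Tnfrsf10b were higher in DN4 in 5 of 5 pairs, and Ccng1, Trp53inp1 and Sesn1 in 4 of 5, all but replicate 4. Of genes not called, Phlda3 was lower in DN4 in 5 of 5 pairs (log2 differences -1.11 to -0.09) and Zmat3 higher in 4 of 5. Without Lmo2tg DN4 replicate 4, 4 genes passed without the block, and without Lmo2tg DN4 replicate 3 none did (0, with Mdm2 at 0.19 and an adjusted p of 0.138). The Mdm2 call was also lost without Lmo2tg DN4 replicate 1 or Lmo2tg DN2/3 replicate 2, 3, 4 or 5. In Ldb1-KO, Phlda3 fell by 0.73 on the log2 scale (SE 0.23, adjusted p = 0.0187), 1 of the 9 genes, where 28.1% of all genes changed, 12.3% higher and 15.8% lower. It was lower in 4 of 5 pairs, and the call was lost without Ldb1-KO DN2/3 replicate 4 (-0.46, adjusted p = 0.107) or without Ldb1-KO DN4 replicate 1 or 2. With the block Phlda3 was again the 1 gene called (-0.68, adjusted p = 0.0052), where 48.2% of all genes changed, 22.5% higher and 25.7% lower. Mdm2 and Trp53inp1, which were not called, were higher in DN4 in 5 of 5 Ldb1-KO pairs.

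The Lmo2tg effect was then compared between stages in 1 model. For 2 of the 9 genes, Sesn1 and Trp53inp1, the log2 difference between Lmo2tg and wild type was larger at DN4 than at DN2/3, where 25.6% of all genes differed, 14.7% upward and 11% downward. The gap was 0.61 for Sesn1 (SE 0.18, adjusted p = 0.0165) and 1.28 for Trp53inp1 (SE 0.46, adjusted p = 0.0414). With the block, Ccng1 (0.71, adjusted p = 0.00205), Sesn2 (0.54, 0.0281) and, in the other direction, Trp53 (-0.38, 0.0262) passed as well. That made 5 of the 9 genes, near the 49.4% of all genes that differed with the block, 25.8% upward and 23.7% downward. Sesn1 was lost without wild type DN4 replicate 3 (0.53, adjusted p = 0.0507), leaving 0 genes called. Trp53inp1 was lost in 11 of 18 fits that leave out 1 library, with gaps of 1.01 to 1.49 over all 18, and held without wild type DN2/3 replicate 1, wild type DN4 replicate 2, Lmo2tg DN2/3 replicate 1 or 3, or Lmo2tg DN4 replicate 2, 4 or 5. Without Lmo2tg DN4 replicate 4 the number was 4, with Ccng1 (0.98, adjusted p = 0.00294) and Trp53 (-0.48, adjusted p = 0.0349) added. For Phlda3 the gap was -0.25 (95% interval -0.94 to 0.44) and for Tnfrsf10b -0.02 (-0.93 to 0.89). For Ldb1-KO against Lmo2tg no stage difference passed the edgeR test among the 9 genes (0, with 0 at an unadjusted p below 0.05 and 0 by DESeq2), where 1.36% of all genes did, 0.132% upward and 1.22% downward. With the block the number was also 0, where 13.5% of all genes differed, 6.25% upward and 7.2% downward. For Ldb1-KO against wild type none passed without the block (0, with 1, Sesn1, at an unadjusted p below 0.05 and 0 by DESeq2), where 0.216% of all genes did, 0.181% upward and 0.0348% downward. With the block Trp53inp1 (0.92, adjusted p = 0.0331) and Sesn1 (0.51, 0.0114) passed, 2 of the 9 genes, near the 19.6% of all genes that did, 10.2% upward and 9.35% downward.

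**Figure D3:**
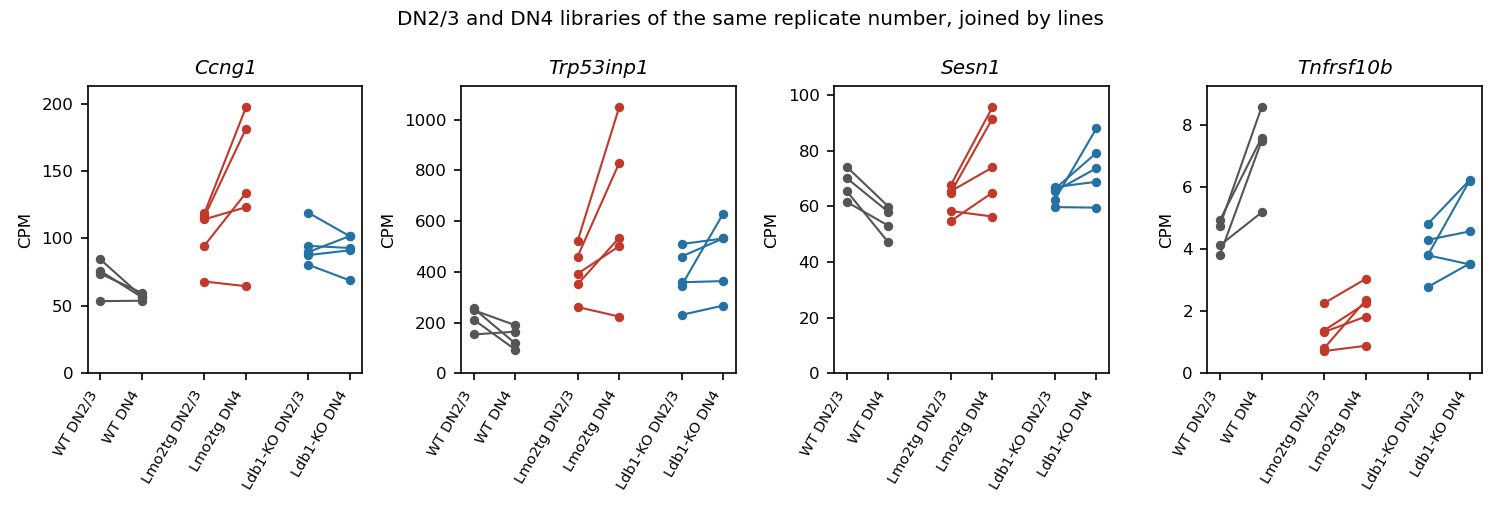
CPM (y axes, linear from 0) of Ccng1, Trp53inp1, Sesn1 and Tnfrsf10b in the DN2/3 and DN4 libraries of each replicate number (points joined by lines) by genotype (x axes, WT is wild type). All 4 wild-type lines fall for Sesn1 and rise for Tnfrsf10b, and in Lmo2tg 4 of 5 lines rise for Ccng1, Trp53inp1 and Sesn1.

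The better known p53 targets of the Cdkn and Bcl2 families moved apart from one another. Cdkn1a, which encodes the cell cycle inhibitor p21, stood at 53.5, 48.7, 66.6 and 66.6 CPM for wild type, 0.869, 5.29, 1.92, 3.09 and 2.68 for Lmo2tg, and 17.7, 33.3, 27, 35.9 and 38.8 for Ldb1-KO, all at DN2/3. The 3 ranges did not overlap, and Ldb1-KO was above Lmo2tg (log2 fold 3.47, SE 0.40, adjusted p = 6.01e-07). In DN4 Cdkn1a was below 10 CPM in every library. It ran from 3.08 to 9.19 CPM in wild type, 1.09 to 2.54 in Lmo2tg and 0.999 to 3.51 in Ldb1-KO. Mean log2 CPM of Cdkn1a in Lmo2tg DN4 minus wild type was -1.59, and the 2 ranges did not overlap. Bbc3, which encodes the death-promoting protein Puma, stood at 5.19, 4.22, 3.25 and 3.49 CPM for wild type, 18.9, 24.9, 7.48, 27.6 and 28.4 for Lmo2tg, and 7.91, 6.66, 5.31, 9.22 and 8.57 for Ldb1-KO, all at DN4. Only Lmo2tg replicate 3 was within the Ldb1-KO range. Bbc3 fell in Ldb1-KO against Lmo2tg by 1.23 at DN2/3 (adjusted p = 0.00258) and by 1.51 at DN4 (adjusted p = 0.000582) on the log2 scale. Pmaip1, which encodes Noxa, rose in Lmo2tg DN4 (log2 fold 1.00, adjusted p = 0.0305). Bax, an effector of mitochondrial death, had log2 folds of 0.44 and -0.03 in Lmo2tg against wild type at DN2/3 and DN4 (adjusted p = 0.0656 and 0.907). Of these 4 genes, 2 rose and 1, Cdkn1a, fell in Lmo2tg DN4, where 52.4% of all genes changed. In Ldb1-KO against wild type 1 rose and 0 fell at DN2/3, and 1 rose and 2 fell at DN4. There 9.56% and 32.6% of all genes changed. Mean log2 CPM of Pmaip1 in Ldb1-KO DN2/3 minus wild type was 1.41.

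**Figure D4:**
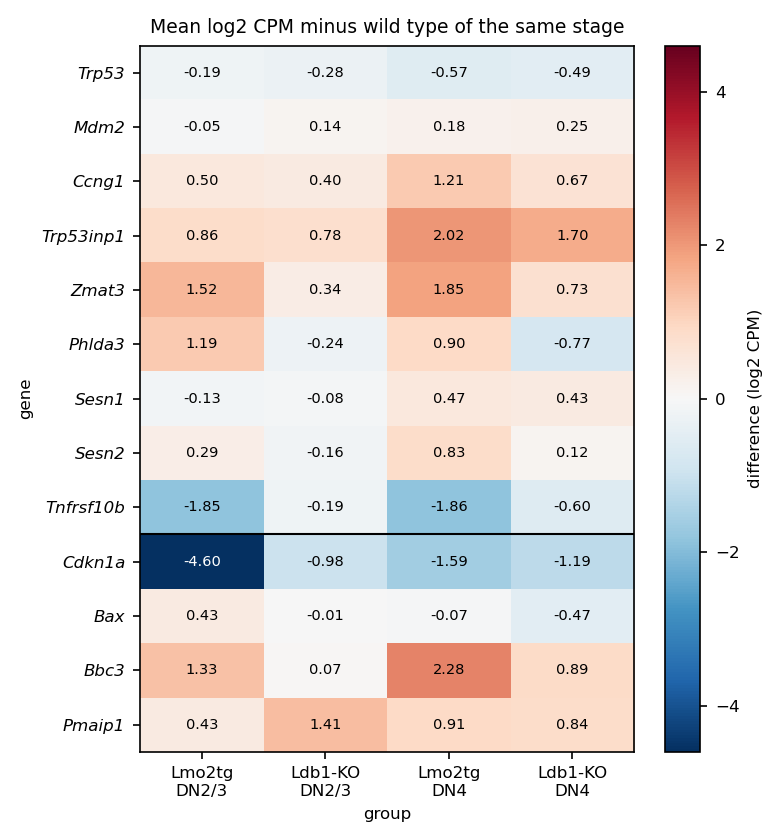
Mean log2 CPM of each transgenic group minus that of wild type at the same stage (colour and printed value, columns are groups) for the 9 genes and, under the line, 4 p53 targets of the Cdkn and Bcl2 families (rows). In Lmo2tg DN2/3, Cdkn1a lies at -4.60 and Tnfrsf10b at -1.85, while Zmat3 lies at 1.52 and Phlda3 at 1.19.

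Further p53 targets went in both directions. Of 30 others in a list, 28 were tested, and in Lmo2tg against wild type 7 rose and 6 fell at DN2/3, and 11 rose and 7 fell at DN4, where 29.5% and 52.4% of all genes changed. Their median log2 folds were 0.20 and -0.06, against 0.01 and 0.07 over all genes. At DN2/3 Zfp365 rose (log2 fold 2.26, adjusted p = 2.11e-06) while Dcxr (-1.35, adjusted p = 0.000107) and the antiproliferative gene Btg2 (-0.82, adjusted p = 0.000448) fell. At DN4 the growth arrest gene Gadd45a (1.89, adjusted p = 8.01e-07), the epoxide hydrolase gene Ephx1 (3.5, adjusted p = 7.01e-06) and the desmosomal p53 effector gene Perp (5.08, adjusted p = 1.57e-05) rose. In Ldb1-KO against Lmo2tg, 3 rose and 1 fell at DN2/3 and 2 rose and 3 fell at DN4, with Zfp365 lower at both stages (-1.50 and -0.99, adjusted p = 0.000244 and 0.0122). Over all genes, 16.1% changed at DN2/3 and 14.6% at DN4 in that comparison.

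Among 26 regulators and cofactors of p53, 4 rose and 3 fell in Lmo2tg against wild type at DN2/3, and 10 rose and 5 fell at DN4. These counts are near the 29.5% and 52.4% of all genes that changed. Cdkn2a, whose Arf product blocks Mdm2, rose at DN2/3 (log2 fold 7.17, adjusted p = 1.49e-05), and the kinase gene Hipk2 fell (-0.78, adjusted p = 9.44e-05). Counts per gene symbol do not tell which Cdkn2a transcript rose. At DN4 the acetyltransferase genes Ep300 (0.82, adjusted p = 1.32e-06) and Crebbp (0.77, adjusted p = 1.59e-06) rose and the checkpoint kinase gene Chek2 fell (-0.75, adjusted p = 1.17e-05). In Ldb1-KO against Lmo2tg at DN4, 1 rose and 5 fell, Ep300 (-0.56, adjusted p = 0.000332) and Crebbp (-0.49, adjusted p = 0.000718) among them. There 14.6% of all genes changed, 5.85% higher and 8.71% lower. Of 12 relatives of the 9 genes, 8 were tested, and 6 rose and 2 fell in Lmo2tg DN4, with Trp53inp2 at a log2 fold of 2.95 (adjusted p = 1.41e-06), Ccng2 at 1.31 (7.25e-06) and Phlda1 at 1.24 (0.000119). Trp63, a p53 homologue, was at 0 in wild type, and Trp73, the other, was at 0 in wild type and in Lmo2tg DN2/3.

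The partners of the death receptor and of the sestrins went in both directions. Of 15 genes of the death receptor pathway, 4 rose and 2 fell in Lmo2tg DN2/3, and 6 rose and 6 fell in Lmo2tg DN4, beside the same 29.5% and 52.4% of all genes. Tnfsf10, which encodes TRAIL, rose at DN4 (log2 fold 2.13, adjusted p = 6.48e-05) and fell in Ldb1-KO against Lmo2tg (-1.43, adjusted p = 0.0047). The inhibitor gene Cflar rose (1.03, adjusted p = 0.000265) and the adaptor gene Fadd fell (-0.59, adjusted p = 0.000254) in Lmo2tg DN4. Of 14 sestrin partners, GATOR subunits and Rag GTPases, 3 rose and 1 fell at DN2/3 and 1 rose and 5 fell at DN4 in Lmo2tg, shares near or below those of all genes. Rragd rose at DN2/3 (1.29, adjusted p = 5.7e-05), Depdc5 fell at DN4 (-0.40, adjusted p = 2.35e-05), and the kinase gene Prkaa1 rose at both stages (0.87 and 0.85, adjusted p = 0.00044 and 0.00033).

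Other programs that share targets with p53 moved in the same comparisons. Sesn2 also answers to Atf4, the factor of the amino acid stress response, and of 11 tested Atf4 targets 5 rose in Lmo2tg DN2/3 and 8 rose and 2 fell in Lmo2tg DN4. Over all genes, 29.5% changed at DN2/3 and 52.4% at DN4. Trib3 rose at both stages (2.85 and 2.42, adjusted p = 9.38e-06 and 4.78e-05) and fell in Ldb1-KO against Lmo2tg (-1.53 and -1.68, adjusted p = 0.00437 and 0.00304). Sesn1 and Trp53inp1 also answer to FoxO factors, and of 14 FoxO genes and targets 7 rose and 2 fell in Lmo2tg DN2/3 and 13 rose and 0 fell in Lmo2tg DN4, Txnip at 1.91 (adjusted p = 3.13e-08). The FoxO sum ran from 521 to 678 CPM in wild type DN4 and from 1050 to 2480 CPM in Lmo2tg DN4. It was highest in replicate 3, which was also the highest for Trp53inp1. Sesn1 was instead highest in Lmo2tg DN4 replicate 1, at 95.5 CPM against 91.5 CPM in replicate 3. The Atf4 sums overlapped, from 764 to 906 CPM in wild type DN4 and from 620 to 1070 CPM in Lmo2tg DN4. The part of these programs in the changes of the 9 genes was not tested.

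Markers of other states and cell types moved beside the Lmo2tg DN4 changes. In Lmo2tg against wild type at DN4, 52.4% of all genes changed, 28.9% higher and 23.5% lower. Of 24 cell cycle genes 0 rose and 19 fell, and their sum ran from 10700 to 12000 CPM in wild type DN4 and from 3890 to 10100 CPM in Lmo2tg DN4. Replicate 4 held that highest Lmo2tg sum and the lowest Trp53inp1, Ccng1 and Sesn1 of its group. In Lmo2tg DN2/3, replicate 4 was again the lowest for Trp53inp1 and Ccng1, while the highest cell cycle sum, 8650 CPM, was that of replicate 2. Replicate 4 was also the lowest for both genes in Ldb1-KO at both stages. That Ldb1-KO replicate held the highest summed CPM of 6 gamma-delta T cell markers in each stage, 1580, beside group medians of 485 (DN2/3) and 393 (DN4). The highest wild-type sums of these markers were 227 (DN2/3) and 300 (DN4). In Lmo2tg other replicates held the highest sums, replicate 3 in DN2/3 (422) and replicate 5 in DN4 (715). Of 12 mature T cell markers 12 rose, with sums of 549 to 744 CPM in wild type and 1130 to 3110 CPM in Lmo2tg DN4. Of 10 B cell markers 9 rose, with sums of 24.7 to 45.6 CPM and of 30.3 to 135 CPM. Of 13 immediate early and heat shock genes 10 rose, with sums of 1030 to 1520 CPM and of 2330 to 4110 CPM. Of 7 double-positive thymocyte markers 5 rose and 0 fell, with sums of 519 to 699 CPM and of 816 to 3150 CPM. Of 8 tested myeloid markers 6 rose and 0 fell, with sums of 6.13 to 8.91 CPM and of 11.3 to 18.6 CPM. Of 8 tested NK and innate lymphoid markers 5 rose and 1 fell, with overlapping sums of 372 to 520 CPM and of 265 to 495 CPM. In Ldb1-KO DN4 against Lmo2tg DN4, 10 cell cycle genes rose and 0 fell, with sums of 9450 to 10500 CPM in Ldb1-KO, and 7 B cell markers fell. Over all genes, 5.85% rose and 8.71% fell there. In Ldb1-KO DN4 against wild type DN4, 11 of the 12 mature T cell markers, 10 of the 13 immediate early and heat shock genes, 6 of the 7 double-positive markers and 5 of the 10 B cell markers rose, and 0 of the 24 cell cycle genes changed. Over all genes, 18.2% rose and 14.4% fell in that comparison. In wild type, all 24 cell cycle genes rose from DN2/3 to DN4, and 9 of the 13 immediate early and heat shock genes fell. Between these stages 21.1% of all genes rose and 24.8% fell. At DN2/3, 2 of the 24 cell cycle genes rose in Lmo2tg and 0 fell, where 15.1% of all genes rose and 14.4% fell. Of the 12 mature T cell markers 5 rose and 0 fell, and of the 13 immediate early and heat shock genes 3 rose and 0 fell. The part of these markers in the values of the 9 genes was not tested.

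Genes whose 6 group means ran most like those of Trp53 and of Tnfrsf10b, the member with the widest span, were found by the root mean square difference of the centred mean log2 CPM over the 6 groups. Those nearest to Trp53 were Ddx51 at 0.018, Dhrs7b at 0.020 and Ccdc71 at 0.022, against a median of 0.374 over all other genes tested. Those nearest to Tnfrsf10b were Pam at 0.105, Scpep1 at 0.113 and Myo5a at 0.115, against a median of 0.903. Being the smallest distances of each search, these lie below the median by construction. The spans across the groups also differed, 0.57 for Trp53 and 2.53 for Tnfrsf10b.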

How the data were processed

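RNA of 28 sorted thymocyte samples was sequenced as paired reads of 101 bases (TruSeq RNA V2, HiSeq2500), per the labels' protocols. The submitters' processing notes name STAR 2.5.2a, featureCounts 1.4.6-p3 and mm10. The annotation, and whether strand was used, were not given in the sources used here. The authors deposited raw counts per gene symbol, and each column was joined to its sample by library name, with 0 columns left over. No exon of the 9 genes overlapped another gene, and at most 0.64% of a gene's 101-base stretches occurred in another gene. Positions and exon lengths come from GENCODE M21 on mm10.

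The deposited counts went into edgeR 4.0.16 under R 4.3.3 (quasi-likelihood F-test, two-sided, TMM, filterByExpr, robust), with the 28 samples as 6 groups and 14371 genes, with Benjamini-Hochberg adjustment within each of 12 contrasts. A gene is called at an adjusted p below 0.05. CPM uses TMM-scaled totals, which ran from 28.1 to 106.93 M counts before scaling. No 2 replicates were copies of each other (lowest chi-square per degree of freedom 28.5). Alternatives were DESeq2 1.42.0 (its size factors, and its Wald test), no filter on low counts, a model of the compared groups only, the replicate number as a block, and leaving out each library.

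The replicate numbers pair the 2 stages within a genotype by the data: deviations from the group means of same-numbered libraries correlated at 0.15 to 0.33 in wild type, 0.51 to 0.65 in Lmo2tg and 0.29 to 0.53 in Ldb1-KO, over 0.1 in every pair. Between genotypes they did not reach 0.1 in every pair.

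The 9 genes and all gene lists were chosen with earlier results of these data known. All 9 genes and the 4 Cdkn and Bcl2 family targets are named, and from each other list at most the 3 genes with the smallest adjusted p in a comparison.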

Additional observations from a re-analysis of the deposited data

Results flagged for a closer look

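In 54 groups of 4 or 5 libraries (9 genes in 6 groups), 2 libraries stood apart from the rest of their group by Dixon's ratio at the 95% level, where chance marks about 1 group in 20. Trp53 in Ldb1-KO DN2/3 replicate 4 was at 292 CPM, with the others from 234 to 247 CPM. Phlda3 in Lmo2tg DN2/3 replicate 2 was at 10.5 CPM, with the others from 14.5 to 15.6 CPM.

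The Lmo2tg effect differed between stages for 2 genes by the interaction term of the edgeR model. The log2 difference was larger at DN4 by 0.61 for Sesn1 (adjusted p = 0.0165) and by 1.28 for Trp53inp1 (adjusted p = 0.0414).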

How the results depend on the processing

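Of the 73 results for single genes that were recomputed, none reversed under another normalization, filter, tool, model or block. DESeq2's size factors changed no call among them and moved no count of calls past 1.5 times. Counts are of genes called in each comparison, first over the 9 genes and then over all genes.

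Without the filter on low counts, the 9 genes gave 3 calls in Ldb1-KO against Lmo2tg at DN4, 0 in DN4 against DN2/3 in Lmo2tg and 1 in the stage difference of the Lmo2tg effect. DESeq2's Wald test gave 1 in DN4 against DN2/3 in wild type, and over all genes 390 and 284 in the stage differences of Ldb1-KO against Lmo2tg and against wild type (195 and 31 in edgeR).

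In a model fitted to the compared groups alone, the 9 genes gave 1 call in Ldb1-KO against Lmo2tg at DN4, 1 and 8 in Ldb1-KO against wild type at DN2/3 and DN4, 5, 0 and 0 in DN4 against DN2/3 in wild type, Lmo2tg and Ldb1-KO, 1 in the stage difference of the Lmo2tg effect and 1 in that of Ldb1-KO against wild type. Over all genes it gave 4947 in Lmo2tg against wild type at DN4 (7532 in the model of all groups), 681 in Ldb1-KO against Lmo2tg at DN4 (2092), 3037 in Ldb1-KO against wild type at DN2/3 (1374) and 321 in DN4 against DN2/3 in Lmo2tg (2208). In the stage differences it gave 2146 for Lmo2tg (3684), 85 for Ldb1-KO against Lmo2tg and 1737 for Ldb1-KO against wild type. The cause was not tested.

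With the replicate block, the 9 genes gave 5 calls each in DN4 against DN2/3 in wild type, in the same comparison in Lmo2tg and in the stage difference of the Lmo2tg effect, and 2 in that of Ldb1-KO against wild type. Over all genes the block gave 5569 and 6934 in DN4 against DN2/3 in Lmo2tg and Ldb1-KO (2208 and 4039 without it). In the stage differences it gave 7106 for the Lmo2tg effect, 1933 for Ldb1-KO against Lmo2tg, and 2811 for Ldb1-KO against wild type. Between genotypes the labels do not say that a number marks a shared animal, litter or day, the lowest correlations of same-numbered libraries were -0.18 to 0.03, and at most 4 of 5 libraries matched their own number best. Library names of the transgenic groups run in sets of 4 by replicate number, and a link between them was not tested further. There the block gave 2449 genes in Ldb1-KO against wild type at DN2/3, ended the Zmat3 call in Ldb1-KO against Lmo2tg at DN4 (-1.21, adjusted p = 0.0651) and brought Tnfrsf10b in Ldb1-KO against wild type at DN4 just past the threshold (-0.69, adjusted p = 0.05). It changed no other call between genotypes.

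Leaving out 1 library at a time gave, over the 9 genes, 2 to 5 calls in Ldb1-KO against Lmo2tg at DN4, 3 to 6 in Ldb1-KO against wild type at DN4, 0 to 1, 0 to 4 and 0 to 1 in DN4 against DN2/3 in wild type, Lmo2tg and Ldb1-KO, and 0 to 4 in the stage difference of the Lmo2tg effect. Over all genes it gave 764 to 1406 in Ldb1-KO against wild type at DN2/3, 2855 to 5028 at DN4, and 1577 to 3450 in DN4 against DN2/3 in Lmo2tg. The stage differences gave 2412 to 5411 for Lmo2tg, 139 to 624 for Ldb1-KO against Lmo2tg and 6 to 47 for Ldb1-KO against wild type. Log2 folds that did not pass changed sign for Trp53inp1 in Ldb1-KO against Lmo2tg at DN2/3 (-0.19 to 0.08), for Trp53 (-0.03 to 0.19) and Sesn1 (-0.14 to 0.04) at DN4, and for Sesn2 in Ldb1-KO against wild type at DN4 (-0.01 to 0.25). Depth limits Tnfrsf10b most, with 0.721 CPM in its lowest library.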
